A study of Mus musculus with 18 samples.

Results

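Oxidative phosphorylation (OXPHOS) is carried out by the respiratory chain and ATP synthase of the inner mitochondrial membrane, and the nuclear genes for its subunits were followed in bone marrow-derived DCs across 6 conditions. The members were the rows of the table whose gene symbol names a subunit of complexes I to V or cytochrome c. Of 62197 rows, 86 had such a symbol, and 82 of them reached at least 10 normalized counts in at least 3 of the 18 libraries. They comprised 36 subunits of complex I, 4 of complex II, 9 of complex III, 15 of 19 of complex IV, 17 of complex V and Cycs, which encodes cytochrome c. The 4 members below this limit were all genes of complex IV isoforms, namely Cox4i2, Cox7b2, Cox8b and Cox8c. The mitochondrially encoded subunits were not analysed here.

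Bulk RNA-seq had been performed on DCs from cPLA2 WT and cPLA2 KO mice, with 3 libraries in each of 6 groups. All cells had been grown from bone marrow for 10 days in medium with GM-CSF. Nonconfined WT and nonconfined KO cells were taken at the end of culture, confined WT and confined KO cells were held at a height of 3 µm and taken 4 h after confinement, and LPS WT and LPS KO cells had been exposed to 100 ng/ml LPS during 30 min, as their labels state, then washed and taken the next day. The Methods of the study give a shorter exposure, and the label text on the LPS treatment stands with all 18 libraries, whereas the group labels name LPS for these 6 alone. In the KO mice, according to the Methods of the study, floxed Pla2g4a alleles encoding cPLA2 are deleted by Itgax-cre, so that deletion follows activity of the Itgax promoter. No nonconfined group was kept until the next day, so LPS and time in culture cannot be told apart. No group confined at another height is among these libraries. The height of 3 µm, contact with the confining device and the 4 h therefore cannot be told apart either. The labels do not say that the 3 libraries of a group came from separate mice, and the p-values measure only the spread between libraries.

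Electrons from NADH enter the chain at complex I and those from succinate at complex II. They pass through ubiquinone to complex III, through cytochrome c to complex IV and from there to oxygen, and the protons pumped along the way drive ATP synthase, which is complex V. Several complex IV subunits exist as isoforms restricted to muscle, testis or lung, and some subunits are exchanged in inflamed cells. DCs are known to rely less on mitochondrial respiration and more on glycolysis after activation by LPS.

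The libraries held 33027230 to 61300021 reads on genes, with a median of 40950397.5. Values are gene counts divided by a size factor for each library, and differences were tested with limma on log2(normalized count + 1) over 17875 rows, with Benjamini-Hochberg adjustment over all of them and a call at an adjusted p under 0.05. Pla2g4a itself was lower but not absent in nonconfined and confined cells labelled KO, at 697.2, 685.6 and 770.4 normalized counts in nonconfined WT and 547.7, 541.8 and 532.8 in nonconfined KO libraries, and at 1369, 1430 and 1321 in confined WT and 922.6, 871.2 and 919.5 in confined KO libraries, while the LPS libraries were at 967.3 to 1005 with the label WT and 1028 to 1065 with the label KO. The Y-linked gene Ddx3y was between 0 and 3.048 in all nonconfined and confined WT libraries and between 874.4 and 1036 in the KO libraries, so genotype and sex of the donors cannot be told apart. In the LPS groups it crossed the labels. In LPS WT 1, LPS WT 3 and LPS KO 1 it went against the pattern of the other groups, and these 3 are called against their label. LPS WT 3 and LPS KO 3 were both in between, at 662.2 and 783.4. As Ddx3y follows sex, it does not give the genotype of the LPS libraries. Lrmda crossed the labels as well, at 400.6, 24.71 and 243.4 in LPS WT and 22.28, 381 and 240.6 in LPS KO libraries. Acot1 was at 377 to 625.9 in nonconfined and confined KO but at 0 to 54.92 in all LPS libraries. A chi-square of the counts per row, which is 1 for sampling noise alone, was 5.67 between LPS WT 2 and LPS KO 1 and 6.84 between LPS WT 3 and LPS KO 3, below the 10.9 to 53.8 between LPS libraries of the same label. Whether these libraries share material was not tested; they enter the fit as 6 separate libraries, and p-values with LPS would be too small if they do. The LPS libraries were therefore pooled over both labels, and they are called by their label throughout. The DC markers Cd74, H2-Aa and Itgax were abundant in all groups, whereas Flt3 and Cd209a were low. The sum of all 11 DC markers was 544376 to 571009 in nonconfined WT and 469835 to 501834 in confined WT, 643800 to 669676 in nonconfined KO and 459154 to 476982 in confined KO, and 656196 to 773604 in LPS libraries. Marker sums of eosinophils, neutrophils and mast cells or basophils also moved with the groups. The 9 macrophage markers summed to 59782 to 63158 in nonconfined WT and 58587 to 60997 in confined WT, which overlap. Their sums were 65924 to 69979 in nonconfined KO, 64523 to 71227 in confined KO and 55674 to 68868 in LPS libraries. The summed eosinophil markers (7 of 7 measured) were 30748 to 30982 in nonconfined WT, 70178 to 75325 in nonconfined KO, 8081 to 8602 in confined WT, 19499 to 20551 in confined KO and 25447 to 43766 in LPS libraries. Neutrophil markers (11 of 11) summed to 256737 to 261591, 356454 to 392484, 162396 to 172133, 356577 to 370405 and 289108 to 325151 in the same order, and mast cell and basophil markers (7 of 8, with Tpsab1 at 0) to 9105 to 9304, 13324 to 13975, 3707 to 3866, 6846 to 7099 and 8258 to 9625. Their part in the results was not tested. In bulk RNA, fewer cells of a type and less RNA per cell cannot be told apart.

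OXPHOS subunits are abundant transcripts, and 73 of 82 members had a mean over the groups of at least 1000 normalized counts. Levels between genes were compared per kilobase (kb) of the GENCODE canonical transcript on GRCm39, whose length may differ from the gene model used for counting. In nonconfined WT cells the highest was Atp5b, the catalytic beta subunit of ATP synthase, at 18418.5 ± 132.24 normalized counts per kb (SD, n = 3). It was followed by the complex IV subunits Cox4i1 with 17148.1 ± 338.31, Cox6a1 with 14693.7 ± 399.82, Cox8a with 13130.9 ± 250.35 and Cox5a with 10201.3 ± 169.86 per kb, and these neighbours did not overlap within their SD. The next member, Atp5e at 10085.1 ± 270.4 per kb, overlapped with Cox5a. The median over the 82 members was 2408 per kb. The 3 lowest were the tissue-restricted isoforms Cox7a1, Cox6a2 and Cox6b2 at 97.0 ± 22.23, 27.8 ± 10.02 and 22.7 ± 15.44 per kb, of which Cox6a2 and Cox6b2 did not differ beyond their spread. Their ubiquitous counterparts were higher, as for Cox6b1 at 9156.5 ± 184.80 and Cox7a2 at 4206.8 ± 22.35 per kb. A near-identical copy elsewhere in the genome (at least 95% identity over at least 50% of the transcript) was found for 13 of 82 members. Among them were Atp5l with 10 copies, and Cox8a and Cox7a2l with 1 each. The levels of these 13 are uncertain because reads can be split between copies.

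**Figure D1:**
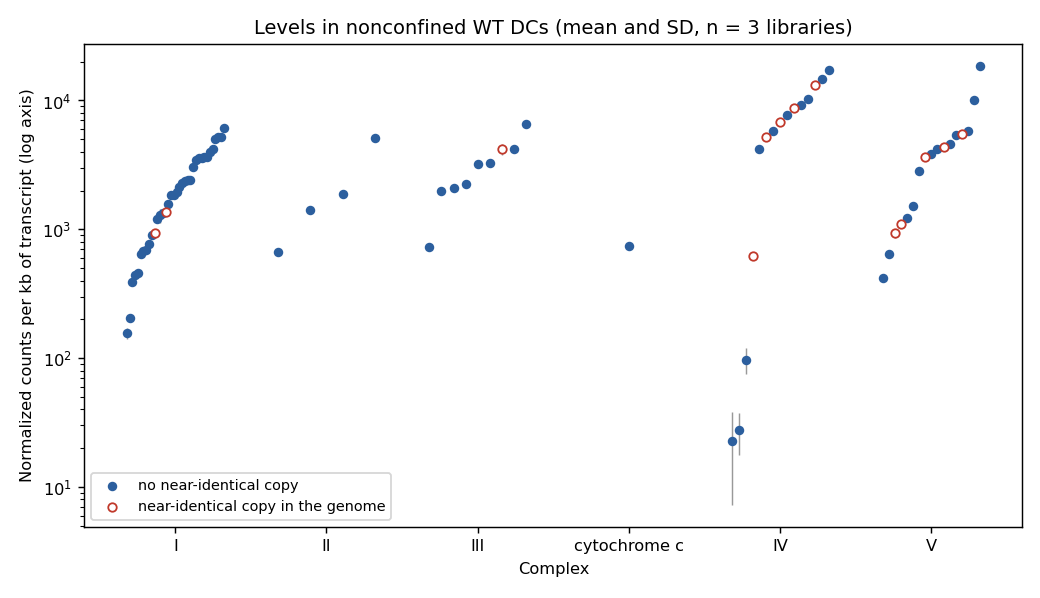
Level of each of the 82 members in nonconfined WT DCs in normalized counts per kb of transcript on a log axis, by complex, as mean and SD of 3 libraries; open circles are members with a near-identical copy. Atp5b, Cox4i1, Cox6a1, Cox8a and Cox5a lie at the top and Cox7a1, Cox6a2 and Cox6b2 at the bottom.

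The first comparison asked how confinement at 3 µm changed these transcripts in WT cells. More subunits were called lower than higher in confined WT cells. Of 82 members, 34 were lower and 7 higher, against 28.4% lower and 28.2% higher among all rows tested, and 41 were not called. The median log2 fold change of the members was -0.11, beside -0.01 for all rows. The changes were small, and 60 of 82 members stayed within 0.25 on the log2 scale. Without confined WT replicate 1 the number higher was 3 and without nonconfined WT replicate 2 it was 4. When each library was scaled to the same total, which moves the median of all rows to -0.23, 65 members were lower and 1 higher. Among all rows 41.3% were then lower and 20% higher. The median of the members minus that of all rows was -0.101 with the size factors and -0.105 with this scaling. With either scaling 58 of 82 members lay below the median of all rows.

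In complex I 17 of 36 subunits (47.2%) were lower in confined WT cells and 3 were higher. Among the genes of its electron-carrying core, Ndufs1, Ndufs3, Ndufs7, Ndufs8 and Ndufv2 were lower. Among the accessory subunits 12 of 29 were lower. Ndufa8 (GSMG0031840, chr2:35926336-35939356), an accessory subunit facing the intermembrane space, was at 2997, 2979 and 3011 normalized counts in nonconfined WT libraries and at 2137, 2165 and 2151 in confined WT libraries. The groups did not overlap, and the log2 fold change was -0.48 (SE 0.061, limma adjusted p = 8.63e-07). The 3 higher subunits were the accessory subunits Ndufa1, Ndufa2 and Ndufb1, with log2 fold changes of 0.18, 0.22 and 0.18. With the same total per library Ndufa2 was at -0.01. Over all complexes 1 of 82 members was called higher with that scaling, against 20% of all rows, so at most 1 of these 3 calls was kept.

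In complex II, which also belongs to the tricarboxylic acid cycle, Sdha and Sdhc were lower by log2 -0.20 (SE 0.041, limma adjusted p = 0.000209) and -0.14 (SE 0.042, adjusted p = 0.00615). Sdhb at 0.13 and Sdhd at 0.06 were not called. In complex III 4 of 9 subunits were lower and 2 higher. Uqcrfs1 (GSMG0014221, chr13:30724295-30729310, minus strand, 2 exons), which encodes the Rieske iron-sulfur protein that takes electrons from ubiquinol, had the largest rise of all called members. It was at 4231, 4479 and 4447 normalized counts in nonconfined WT and at 6434, 6151 and 6343 in confined WT libraries, a log2 fold change of 0.52 (SE 0.044, limma adjusted p = 1.32e-09). The small subunit Uqcr11 went the other way, from 2088, 1922 and 1958 to 1595, 1402 and 1357 normalized counts (log2 fold change -0.46, SE 0.070, adjusted p = 1.01e-05). Cycs was at 2202, 2490 and 2396 in nonconfined WT and at 2398, 2236 and 2094 in confined WT libraries, which overlap, and was not called (log2 fold change -0.08, SE 0.070, adjusted p = 0.377).

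In complex IV 4 of 15 subunits were lower in confined WT cells, namely Cox5a, Cox5b, Cox7a2l and Cox7b. Cox5a had the largest fall among them with a log2 fold change of -0.26 (SE 0.053, adjusted p = 0.000239). In complex V 7 of 17 subunits were lower and 2 higher. The c subunit of the rotating ring is encoded by 3 genes for the same mature protein, of which Atp5g1 and Atp5g2 have near-identical copies, and differences between the 3 genes were not tested. Atp5g1 fell from 2191, 2158 and 2374 to 1924, 1602 and 1541 normalized counts (log2 fold change -0.41, SE 0.079, limma adjusted p = 0.000121) and Atp5g2 from 3227, 3193 and 3087 to 2612, 2366 and 2523 (log2 fold change -0.34, adjusted p = 1.71e-05), whereas Atp5g3 was at -0.11 and was not called. Atp5d, the delta subunit of the F1 head, rose from 7634, 6865 and 7000 to 9028, 8422 and 8673 normalized counts, a log2 fold change of 0.28 (SE 0.052, limma adjusted p = 8.39e-05). With the same total per library 1 of the 82 members was called higher in confined WT cells, against 20% of all rows.

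**Figure D2:**
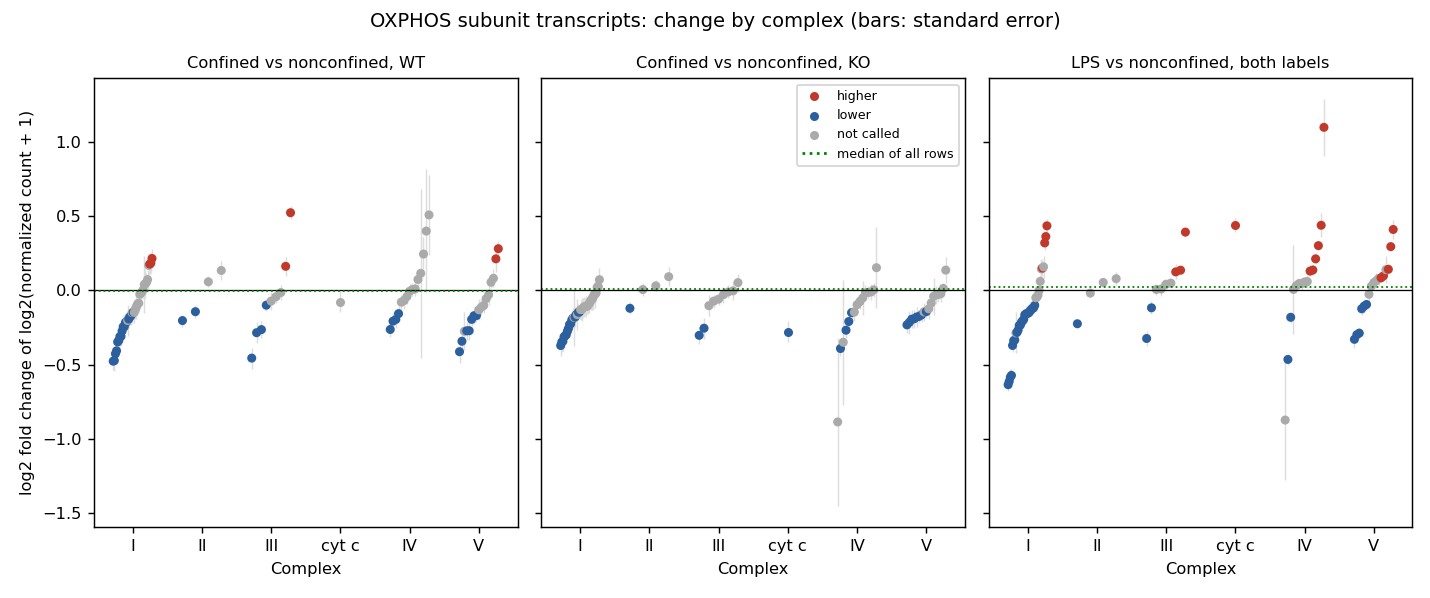
Log2 fold change with standard error of each of the 82 members, by complex, for confined against nonconfined WT, confined against nonconfined KO and LPS against nonconfined cells; colours mark calls and the dotted line the median of all 17875 rows. Blue points outnumber red ones in each panel, 34 to 7, 32 to 0 and 35 to 19.

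In KO cells none of the 82 members was called higher after confinement. Of 82 members, 32 were lower, against 23.4% of all rows, and 0 were higher, against 22.8% of all rows. The count higher was 0 also at an unadjusted p under 0.05 in limma, and 0 by edgeR and by DESeq2 on recovered reads. The median log2 fold change was -0.12 for the members and 0.01 for all rows, and 73 of 82 members lay below the median of all rows. By complex, 16 of 36 were lower in complex I, 1 of 4 in complex II, 2 of 9 in complex III, 4 of 15 in complex IV and 8 of 17 in complex V, and Cycs was lower as well. The nonconfined KO libraries varied more than the WT libraries. Without nonconfined KO replicate 1 the number lower was 19, and the number higher was 1 without nonconfined KO replicate 1 or confined KO replicate 1.

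Among the called members, the largest falls by complex in KO cells were those of Ndufs7, Sdha, Uqcrh, Cox7a2l and Atp5g2. Cox7a2l (GSMG0025344, chr17:83809346-83821765, minus strand), also known as SCAF1, has been described as a factor that joins complexes III and IV into supercomplexes. Whether it does so in these cells was not tested. It fell from 9637, 8555 and 9109 normalized counts in nonconfined KO to 6668, 6912 and 7211 in confined KO libraries. The log2 fold change was -0.39 (SE 0.049, limma adjusted p = 1.07e-06). Ndufs7, a core subunit of complex I, fell from 1845, 1527 and 1722 to 1390, 1220 and 1320 normalized counts (log2 fold change -0.37, SE 0.073, adjusted p = 0.000269). Uqcrh, the hinge protein of complex III, changed by -0.30 (SE 0.056, adjusted p = 0.000144) and Atp5g2 by -0.23 (SE 0.055, adjusted p = 0.00158). Sdha changed by -0.12 (SE 0.041, adjusted p = 0.0196) and lost its call without nonconfined KO replicate 3 or confined KO replicate 2, where it was -0.10 and -0.09. Cycs was at 2550, 2253 and 2136 in nonconfined KO and at 1730, 1967 and 2019 in confined KO libraries, which do not overlap (log2 fold change -0.28, SE 0.070, adjusted p = 0.00244).

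The confinement response itself differed between genotypes for 6 of 82 members. In the interaction, which subtracts the change in WT from the change in KO cells, 5 members were lower and 1 was higher, against 15.6% lower and 10.2% higher among all rows. With the same total per library the counts were 1 lower and 32 higher, against 11% lower and 26.5% higher among all rows, whose median was 0.24. Of the members lower, Uqcrfs1 kept its call with that scaling, at -0.35, while those of Ndufb1 at -0.18, Atp5d at -0.12, Cox7a2l at -0.05 and Ndufa2 were lost, and Ndufs8 was at 0.48. Without nonconfined KO replicate 2 the number lower was 9 and the number higher 0, and the number higher ranged from 0 to 3 over the single libraries left out. Uqcrfs1 stood out with -0.53 (SE 0.062, limma adjusted p = 7.65e-07). In KO cells it was at 4689, 4178 and 4433 normalized counts before and at 4370, 4409 and 4413 after confinement, whereas all confined WT libraries were at 6151 or more. Ndufb1, Atp5d, Ndufa2 and Cox7a2l were also lower, with -0.37 (SE 0.094, adjusted p = 0.00578), -0.31 (SE 0.073, adjusted p = 0.0031), -0.25 and -0.24 (SE 0.069, adjusted p = 0.0148). With the size factors Ndufb1 was the member called in both genotypes in opposite directions, with 0.18 in WT and -0.19 in KO cells. Its KO libraries overlapped, at 4239, 3302 and 3994 normalized counts before and 3263, 3458 and 3355 after confinement. With the same total per library 1 of 82 members was called higher in confined WT cells, against 20% of all rows. Ndufs8, a core iron-sulfur subunit of complex I, was the member with the opposite sign at 0.30 (SE 0.092, adjusted p = 0.0203). It fell in WT cells from 1848, 1869 and 1873 to 1419, 1345 and 1452 normalized counts, and was at 2083, 1750 and 1996 before and at 1671, 1899 and 1817 after confinement in KO cells, where the groups overlap. Its call was lost without nonconfined KO replicate 2, confined WT replicate 2 or confined KO replicate 2, with values of 0.22, 0.27 and 0.26.

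**Figure D3:**
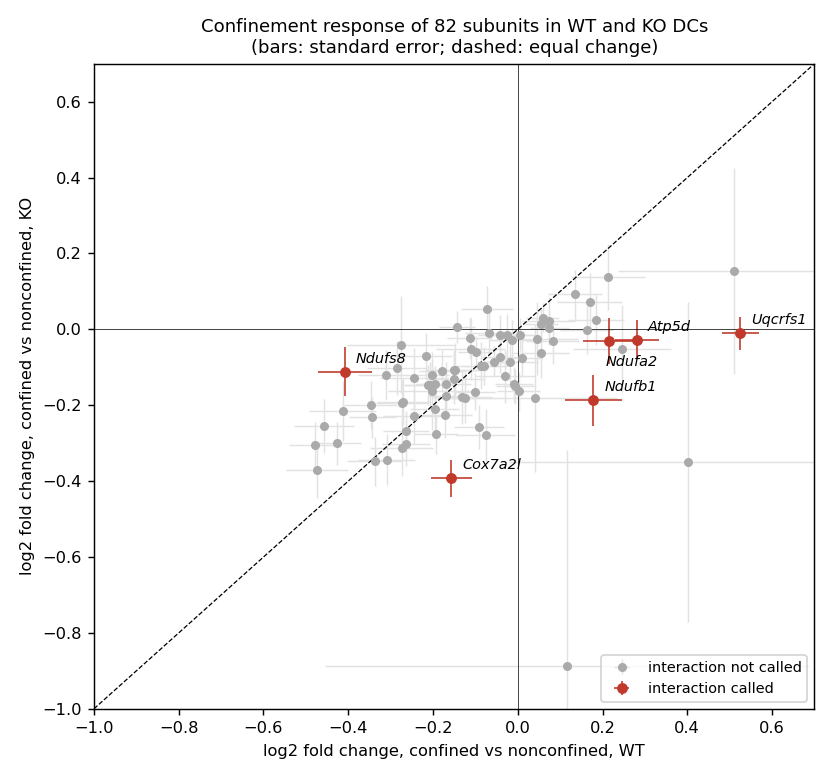
Log2 fold change with confinement of each of the 82 members in WT (horizontal axis) and KO cells (vertical axis) with standard errors; the dashed line marks equal change and red points the 6 members called in the interaction. Uqcrfs1 lies farthest right of the called members at 0.52 in WT and -0.01 in KO cells.

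The promoters shown are those of the called members with the largest rise or fall of each complex in the interaction with the size factors. This leaves out Ndufa2. Of these 5, the calls of Ndufb1, Cox7a2l and Atp5d depended on the scaling and that of Ndufs8 on single libraries. Each window runs from 250 bases before to 50 bases after the start of the GENCODE canonical transcript on GRCm39, and is read in the direction of transcription. Capitals mark matches, on either strand, to the letters of the NRF1 motif GCGCANGCG or of the ETS motif CCGGAAG that the regulator GABPA binds. The start of the Atp5d transcript used here lies upstream of the gene start in the table.
Uqcrfs1, chr13:30729296-30729595, minus strand: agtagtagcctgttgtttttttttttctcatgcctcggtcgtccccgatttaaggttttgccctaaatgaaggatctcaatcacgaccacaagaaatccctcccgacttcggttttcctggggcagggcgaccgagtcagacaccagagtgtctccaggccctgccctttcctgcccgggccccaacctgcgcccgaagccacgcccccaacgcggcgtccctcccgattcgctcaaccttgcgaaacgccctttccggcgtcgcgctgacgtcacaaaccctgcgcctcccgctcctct
Ndufb1, chr12:101942464-101942763, minus strand: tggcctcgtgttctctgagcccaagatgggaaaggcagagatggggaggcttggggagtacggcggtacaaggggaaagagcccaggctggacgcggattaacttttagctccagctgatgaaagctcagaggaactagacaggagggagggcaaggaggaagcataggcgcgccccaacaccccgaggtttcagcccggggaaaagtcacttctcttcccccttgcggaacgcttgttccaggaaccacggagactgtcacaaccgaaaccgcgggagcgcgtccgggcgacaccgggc
Cox7a2l, chr17:83821711-83822010, minus strand: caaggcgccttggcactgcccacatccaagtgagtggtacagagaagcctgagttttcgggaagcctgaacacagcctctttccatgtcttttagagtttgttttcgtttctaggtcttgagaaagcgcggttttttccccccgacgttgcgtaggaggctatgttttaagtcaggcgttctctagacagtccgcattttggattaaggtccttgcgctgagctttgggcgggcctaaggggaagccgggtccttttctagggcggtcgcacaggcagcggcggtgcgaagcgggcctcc
Atp5d, chr10:79977136-79977435, plus strand: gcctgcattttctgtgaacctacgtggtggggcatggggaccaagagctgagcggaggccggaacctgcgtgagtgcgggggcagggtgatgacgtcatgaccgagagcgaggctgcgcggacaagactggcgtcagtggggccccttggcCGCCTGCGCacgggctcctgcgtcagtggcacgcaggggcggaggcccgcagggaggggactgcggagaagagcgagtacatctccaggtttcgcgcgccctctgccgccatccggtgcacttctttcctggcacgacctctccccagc
Ndufs8, chr19:3962730-3963029, minus strand: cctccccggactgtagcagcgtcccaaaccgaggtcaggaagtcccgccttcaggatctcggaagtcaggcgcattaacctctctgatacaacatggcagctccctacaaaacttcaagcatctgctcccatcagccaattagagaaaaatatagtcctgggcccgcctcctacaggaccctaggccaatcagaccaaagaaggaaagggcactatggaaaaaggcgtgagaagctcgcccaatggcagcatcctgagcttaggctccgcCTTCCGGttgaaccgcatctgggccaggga
The window of Atp5d held 1 match to the NRF1 motif and that of Ndufs8 held 1 match to the ETS motif, and neither motif matched in the windows of Uqcrfs1, Ndufb1 and Cox7a2l. Over all 82 members, 16 windows (19.5%) held the NRF1 motif, against 8.1% of 21757 protein-coding genes, and 12 (14.6%) the ETS motif, against 10.3%. NRF1 and GABPA are known as activators of respiratory chain genes. The YY1 motif AAGATGGCG was in 1.2% of member windows and 1.3% of all windows, the interferon response element GAAANNGAA in 7.3% and 8.8%, and the kappaB motif in 7.3% and 9.0%. Each motif was searched separately on both strands, overlap between matches of different motifs was not counted, and a match describes the sequence alone.

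Direct comparison of the genotypes showed hardly any difference in nonconfined cells. Against 4.11% of all rows, 1 of 82 members was lower in nonconfined KO than in nonconfined WT cells, and 0 were higher, against 4.78% of all rows. In limma 5 members were higher at an unadjusted p under 0.05, and edgeR and DESeq2 called 0 higher. The member called was Atp5b, at 35630, 35180 and 35620 normalized counts in WT and 32720, 30940 and 31880 in KO libraries, a log2 fold change of -0.16 (SE 0.040, limma adjusted p = 0.017). Its call was lost without nonconfined WT replicate 1 or 3 or nonconfined KO replicate 3, at -0.15, -0.15 and -0.16. Without nonconfined KO replicate 2, 8 members were higher.

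In confined cells 9 members were lower in KO than in WT, against 20.6% of all rows, and 4 were higher, against 18.8%. Among the members lower were Uqcrfs1, Uqcrq, Cycs, Ndufb1, Cox7a2l, Atp5a1, Atp5b and Atp5d, and those higher were Ndufa8, Ndufb7, Ndufs8 and Uqcr11. For Uqcrfs1 the log2 fold change was -0.52 (SE 0.044, limma adjusted p = 3.14e-09) and for Atp5d -0.25 (SE 0.052, adjusted p = 0.000536). Ndufs8 was at 0.35 (SE 0.065, adjusted p = 0.000157) and Uqcr11 at 0.27 (SE 0.070, adjusted p = 0.00437). Without confined WT replicate 1 only 3 members were lower, and without confined KO replicate 1 it was 5. The calls of Cycs (-0.24), Ndufb1 (-0.22) and Cox7a2l (-0.14) were lost without confined WT replicate 1, those of Cycs and Cox7a2l also without confined KO replicate 1, and that of Cox7a2l also without confined WT replicate 2 or confined KO replicate 2. Cox7a2l was at 0.015 with the same total per library. With that scaling 49 members were higher and 1 lower in confined KO cells, against 33.6% and 14.6% of all rows. The median of all rows moved from 0.04 to 0.19, so that the split between higher and lower members depends on the scaling.

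Between LPS libraries labelled KO and WT, 0 of 82 members were higher and 0 were lower, and the same was so of 0% of all rows in either direction. In limma 1 member was higher and 1 lower at an unadjusted p under 0.05, and edgeR and DESeq2 called 0 members. As Ddx3y went against the label in 3 of these 6 libraries, their genotype is uncertain, and this comparison does not test the genotype.

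With LPS, subunits were called in both directions. Against 34.3% of all rows, 35 of 82 members were lower than in nonconfined cells, and 19 were higher, against 37.2% of all rows. The median log2 fold change was -0.02 for the members and 0.02 for all rows. Within complex I 24 of 36 subunits were lower and 4 higher, and the core genes Ndufs1, Ndufs3, Ndufs7, Ndufs8, Ndufv1 and Ndufv2 were among those lower, with values between -0.14 for Ndufs1 and -0.59 for Ndufs7. In complex IV 6 of 15 were higher and 2 lower. Complex III had 3 higher and 2 lower, complex V 5 higher and 6 lower, and complex II 1 lower. The direction depends on the scaling. With the same total per library 76 members were lower and 1 was higher, against 56.8% and 20.4% of all rows. The median of all rows was then -0.46. With that scaling Cycs, Ndufb1, Uqcrfs1, Atp5md, Cox6a1, Cox6b1, Cox7a2 and Atp5g3, higher with the size factors, had negative values.

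Ndufa8 had the largest fall in complex I, to between 1944 and 2120 normalized counts in the 6 LPS libraries from between 2910 and 3649 in the 6 nonconfined libraries, a log2 fold change of -0.64 (SE 0.043, limma adjusted p = 1.61e-11). The accessory subunit Ndufb1 was the complex I subunit with the largest rise, from 3302 to 4239 up to 4725 to 5196 (log2 fold change 0.44, SE 0.047, adjusted p = 3.18e-08). Sdhd, a membrane anchor of complex II, fell from 6264 to 6531 down to 5347 to 5704 normalized counts, a log2 fold change of -0.22 (SE 0.027, adjusted p = 1.53e-07). Uqcrfs1 was at 5607, 5866 and 5769 in libraries labelled LPS WT and at 5867, 5707 and 5926 in those labelled LPS KO, above each of the 6 nonconfined libraries (log2 fold change 0.39, SE 0.031, adjusted p = 1.92e-10). Uqcr11 changed by -0.32 (SE 0.050, adjusted p = 5.5e-06).

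Cytochrome c also triggers apoptosis when released from mitochondria. With the size factors its gene was called higher with LPS, and not with confinement in either genotype. Cycs was at 2958, 3076 and 3096 normalized counts in libraries labelled LPS WT and at 3402, 3261 and 3252 in those labelled LPS KO, all above the highest nonconfined library at 2550. Its log2 fold change with LPS was 0.44 (SE 0.049, limma adjusted p = 5.2e-08). Relative to LPS it was lower in confined WT by -0.50 (SE 0.060, adjusted p = 3.95e-07) and in confined KO cells by -0.74 (SE 0.060, adjusted p = 6.21e-10). With the same total per library its change with LPS was -0.05 and was not called (limma adjusted p = 0.342). The LPS and confined cells were also taken at different times, so stimulus and time cannot be told apart.

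Among the complex IV isoforms, the ubiquitous Cox6a1, Cox6b1 and Cox7a2 were higher after LPS by 0.13 (SE 0.033, limma adjusted p = 0.00117), 0.14 (SE 0.036, adjusted p = 0.00168) and 0.21 (SE 0.037, adjusted p = 2.37e-05), and none of them was called with confinement in either genotype. Cox4i1 was lower in confined KO cells by -0.15 (SE 0.047, adjusted p = 0.0118), a call lost without nonconfined KO replicate 1 or 3 or confined KO replicate 1, and Cox8a was not called in any of the 3 comparisons with nonconfined cells. The muscle isoform Cox7a1 rose at a low level, from 26.06 to 51.44 normalized counts in nonconfined libraries to 60.57 to 112.3 in LPS libraries, a log2 fold change of 1.10 (SE 0.193, adjusted p = 2.82e-05). Cox6a2 at 10.61 to 35.44 and Cox6b2 at 2.948 to 40.03 normalized counts over all libraries were too low to compare. Cox7a2l fell to between 6057 and 6642 with LPS from between 8427 and 9637, a log2 fold change of -0.47 (SE 0.035, adjusted p = 6.86e-11).

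In complex V, Atp5md, also called DAPIT, had the largest rise with LPS at 0.41 (SE 0.062, limma adjusted p = 3.78e-06). Atp5b rose from 30940 to 35630 normalized counts up to 39990 to 42460 (log2 fold change 0.30, SE 0.028, adjusted p = 3.97e-09). With the same total per library 1 of the 82 members was called higher with LPS, against 20.4% of all rows. The value of Atp5b with that scaling is not reported here. Of the c subunit genes, Atp5g1 was at -0.33 (SE 0.056, adjusted p = 1.8e-05) and Atp5g2 at -0.30 (SE 0.039, adjusted p = 5.76e-07), and Atp5g3 at 0.10 (SE 0.038, adjusted p = 0.0243). The call of Atp5g3 was lost without nonconfined KO replicate 2, LPS WT replicate 2 or LPS KO replicate 1. Atpif1, which encodes an inhibitor of ATP synthase and is no subunit, was lower in all 3 comparisons with nonconfined cells, by -0.37 in confined WT, -0.36 in confined KO and -0.43 in LPS cells (SE 0.052, 0.052 and 0.037).

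Set directly against LPS, 31 members were lower in confined WT cells, against 29.8% of all rows, and 12 were higher, against 24.5%. In confined KO cells 30 were lower, against 32.5% of all rows, and 14 higher, against 30.3%. These comparisons share the LPS libraries, and their direction depends on the scaling. With the same total per library 56 members were higher and 1 lower in confined WT cells, against 45.1% and 15% of all rows. In confined KO cells 72 were then higher and 2 lower, against 56.6% and 16.7% of all rows. The medians of all rows were 0.27 and 0.46. With TMM scaling, another way to set the library factors, 19 were higher and 19 lower in confined WT cells, against 28.7% and 24.8% of all rows. The number higher in confined WT cells was 5 without confined WT replicate 1 and 7 without confined WT replicate 3, and in confined KO cells 9 without confined KO replicate 2. Uqcrfs1 was higher in confined WT cells than with LPS by 0.12 (SE 0.038, limma adjusted p = 0.00914) and lower in confined KO cells by -0.40 (SE 0.038, adjusted p = 7.93e-09), where it was at 0.047 with the same total per library. Other named differences in confined WT cells were Ndufa6 at 0.27, Ndufv3 at -0.40, Sdhd at 0.29, Sdhc at -0.16, Uqcrq at 0.16, Uqcrb at -0.40, Cox7a2l at 0.26, Cox7c at -0.29, Atp5d at 0.20 and Atp5l at -0.38, of which Sdhc was at 0.124 with the same total per library. In confined KO cells they were Ndufa8 at 0.40, Ndufb1 at -0.55, Sdhd at 0.24, Sdha at -0.14, Uqcr10 at 0.15, Cox7a2l at 0.12, Cox7a1 at -1.06, Atp5c1 at 0.13 and Atp5b at -0.36, of which Sdha was at 0.308 and Atp5b at 0.084 with the same total per library. In confined WT cells the call of Atp5l was lost without confined WT replicate 2, at -0.30, that of Uqcrq without confined WT replicate 1 or 3, at 0.14 and 0.16, and that of Cox7c without confined WT replicate 3, at -0.24. In confined KO cells the call of Uqcr10 was lost without confined KO replicate 2 or 3, at 0.09 and 0.14, and that of Cox7a2l without confined KO replicate 3, at 0.09.

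Subunits whose symbols lie outside the pattern were followed separately. AA467197, the mouse counterpart of human C15orf48 (NMES1), encodes a relative of NDUFA4 that takes its place in complex IV during inflammation. It was at 2392, 2725 and 2713 normalized counts in nonconfined WT and at 3101, 2420 and 2810 in nonconfined KO libraries. After confinement it was at 11680, 11460 and 11460 in WT and at 4869, 4802 and 4795 in KO libraries, and with LPS between 30720 and 33500. The confined WT, confined KO and LPS libraries did not overlap with each other or with the nonconfined libraries, while the LPS libraries of both labels overlapped. The log2 fold change was 2.15 in confined WT (SE 0.064, limma adjusted p = 3.9e-17), 0.80 in confined KO (SE 0.064, adjusted p = 1.52e-09) and 3.58 with LPS (SE 0.045, adjusted p = 2.73e-24), and the interaction was -1.34 (SE 0.091, adjusted p = 1.48e-10). Ndufa4 itself was between 3630 and 4388 normalized counts in all 18 libraries and was not called in any of the 3 comparisons with nonconfined cells. Ndufab1, the acyl carrier protein of complex I, was likewise not called in them, with values of 0.02, 0.05 and -0.08.

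**Figure D4:**
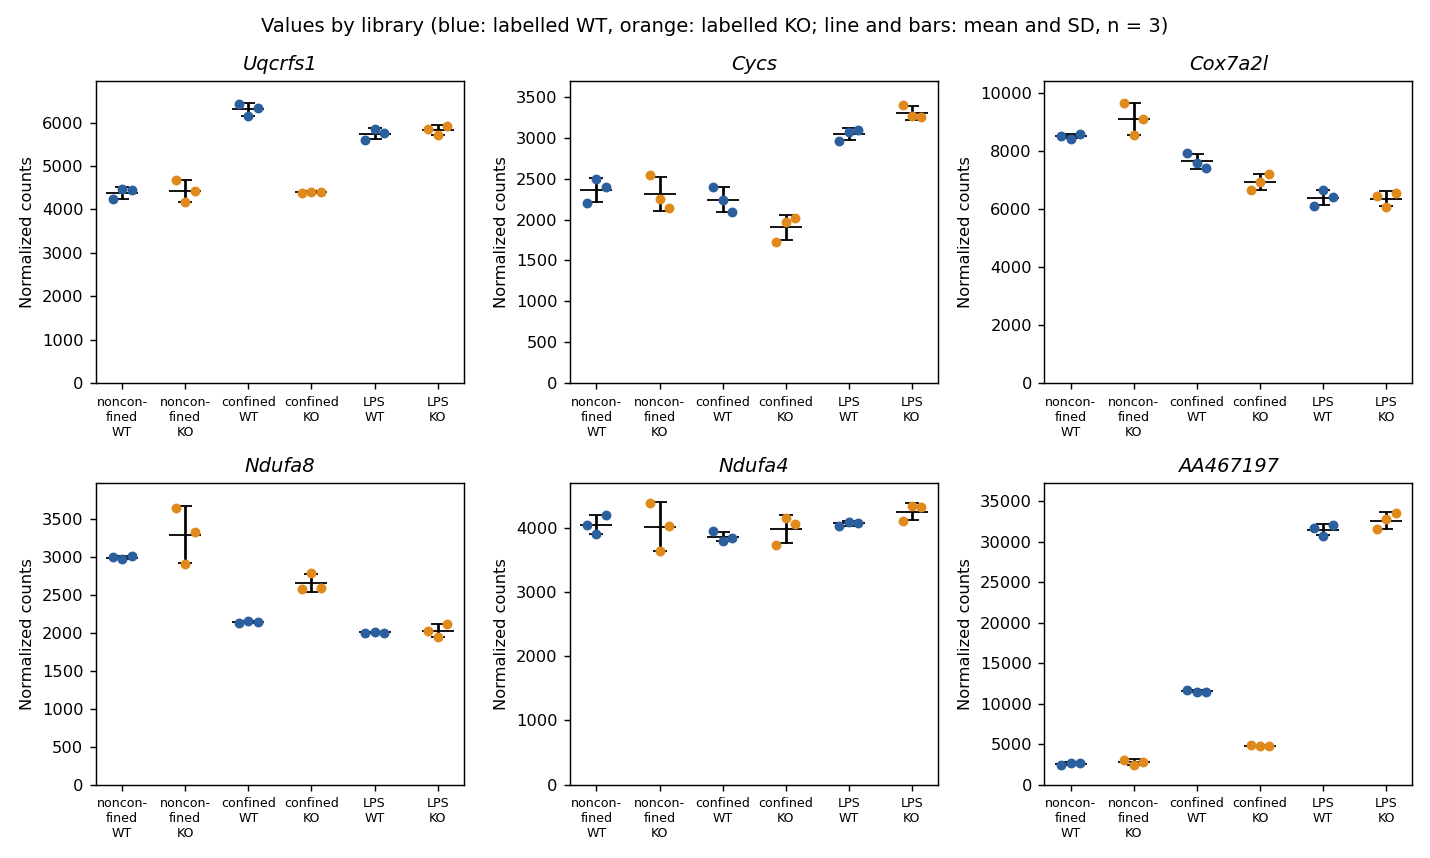
Normalized counts of Uqcrfs1, Cycs, Cox7a2l, Ndufa8, Ndufa4 and AA467197 in each of the 18 libraries, with mean and SD of the 3 libraries of a group; blue marks libraries labelled WT and orange those labelled KO. AA467197 rises from 2392 to 3101 in nonconfined cells to 30720 to 33500 with LPS, while Ndufa4 stays between 3630 and 4388.

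Assembly factors insert cofactors and join the subunits into complexes. For the counts that follow, the shares of all rows called lower and higher were 28.4% and 28.2% in confined WT, 23.4% and 22.8% in confined KO and 34.3% and 37.2% in LPS cells. Of 16 complex I assembly factors, 12 were lower and 0 higher in confined WT cells, with a median log2 fold change of -0.35, beside -0.15 for the 36 subunits of complex I. In confined KO cells 9 were lower and 1 higher (median -0.25), and with LPS 10 were lower and 2 higher (median -0.55). Ndufaf4, which binds early intermediates of complex I, was at 686.5, 724.8 and 693.8 normalized counts in nonconfined WT and at 400, 367.9 and 367.2 in confined WT libraries (log2 fold change -0.89, SE 0.077, limma adjusted p = 2.51e-09), and at -1.29 with LPS (SE 0.055, adjusted p = 4.18e-15). Complex II and III factors were lower for 6 of 10 genes in confined WT, 3 of 10 in confined KO and 8 of 10 in LPS cells, and higher for 2, 0 and 1 of them. Complex IV factors were lower for 13, 9 and 12 of 22 genes, with 2, 0 and 7 higher. Of 3 complex V factors, 2, 1 and 1 were lower and 0, 0 and 1 higher.

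Of the complex II and III factors, 3 act on the Rieske protein encoded by Uqcrfs1. Bcs1l, which inserts this protein into complex III, was at 333.7, 327.4 and 348.9 normalized counts in nonconfined WT and at 259.9, 188.7 and 191.9 in confined WT libraries (log2 fold change -0.67, SE 0.120, limma adjusted p = 6.31e-05), and at -1.31 with LPS (SE 0.085, adjusted p = 6.86e-12). Ttc19, which clears fragments of the Rieske protein, rose from 158.5, 211.5 and 224.1 to 439.7, 433 and 438.3, a log2 fold change of 1.15 (SE 0.122, adjusted p = 5.18e-08), and by 1.07 with LPS (SE 0.086, adjusted p = 2.76e-10). Its interaction was -0.95 (SE 0.173, adjusted p = 0.000242). Lyrm7, a chaperone of the Rieske protein with low counts, was not called in confined WT cells (log2 fold change -0.29, SE 0.472, adjusted p = 0.626) and was at -1.31 with LPS (SE 0.334, adjusted p = 0.00144). The 2 complex IV factors called higher in confined WT cells, beside 13 of 22 called lower, were Sco1 and Cox17, at 0.67 and 0.63, and they rose with LPS by 0.59 and 1.00, with interactions of -0.63 (SE 0.097, adjusted p = 3.63e-05) and -0.57 (SE 0.083, adjusted p = 1.73e-05). These single factors were chosen after their values were seen.

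Of 15 measured regulators of mitochondrial gene expression, 6 were lower and 4 higher in confined WT, 5 lower and 1 higher in confined KO, and 5 lower and 6 higher in LPS cells. In confined WT cells this is 40% lower and 26.7% higher, beside 28.4% and 28.2% of all rows. In confined KO cells it is 33.3% lower and 6.67% higher, beside 23.4% and 22.8%. With LPS it is 33.3% lower and 40% higher, beside 34.3% and 37.2%. Ppargc1b, a coactivator of mitochondrial genes, was at 146.3, 128.8 and 154.3 normalized counts in nonconfined WT and at 81.49, 123.8 and 110.6 in nonconfined KO libraries. It was at 77.3, 46.31 and 88.84 in confined WT libraries (log2 fold change -1.05, SE 0.370, limma adjusted p = 0.0195) and between 5.492 and 18.51 with LPS (log2 fold change -3.50, SE 0.261, adjusted p = 7.67e-11). Gabpb1, the partner of GABPA, rose from 688.1, 605.4 and 643.7 to 1469, 1390 and 1365 in WT cells (log2 fold change 1.12, SE 0.069, adjusted p = 7.68e-12), was at 698.1, 776.3 and 726.3 in confined KO libraries, and had an interaction of -0.97 (SE 0.097, adjusted p = 9.03e-08).

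Ribosomal protein genes, another set of abundant housekeeping transcripts, were counted in the same way. Of 78 mitochondrial ribosomal proteins, 44 were lower and 5 higher in confined WT, 39 lower and 3 higher in confined KO, and 46 lower and 11 higher in LPS cells, with medians of -0.23, -0.20 and -0.22. Of 81 cytosolic ribosomal proteins, 20 were lower and 2 higher in confined WT, 68 lower and 0 higher in confined KO, and 51 lower and 4 higher in LPS cells, with medians of -0.07, -0.27 and -0.14. The cytosolic ribosomal proteins called lower were 24.7%, 84.0% and 63.0% of the list and the mitochondrial ones 56.4%, 50% and 59.0%, beside 28.4%, 23.4% and 34.3% of all rows in the same order. The members together made up 0.948% ± 0.0057 of the normalized counts of a library in nonconfined WT (SD, n = 3) and 0.925% ± 0.045 in nonconfined KO cells. The share was 0.775% ± 0.0083 in confined WT, 0.836% ± 0.027 in confined KO and 0.667% ± 0.019 and 0.666% ± 0.019 in the LPS groups, and neither the confined nor the LPS libraries overlapped with the nonconfined libraries. The mean normalized total of a library, the denominator of this share, was 34125099.9 in nonconfined WT and 39890269.8 in confined WT libraries, 34932739 in nonconfined KO and 35818964.5 in confined KO libraries, and 48718669.5 and 48721815.8 in the LPS groups.

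**Figure D5:**
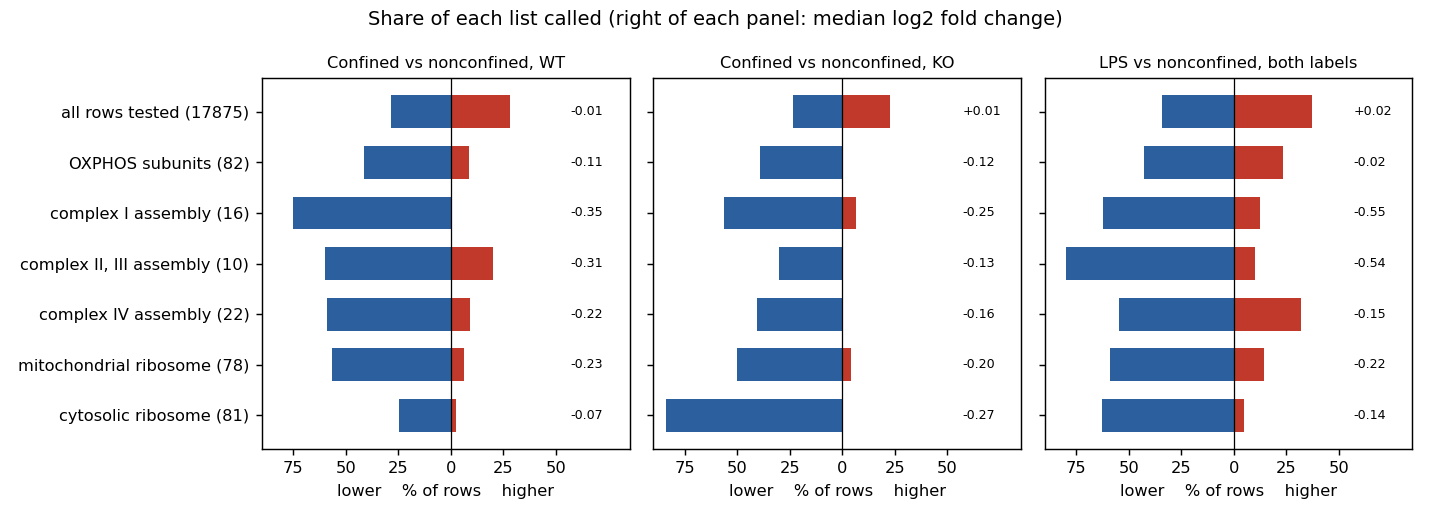
Percent of the rows of each list called lower (blue, to the left) and higher (red, to the right) in confined WT, confined KO and LPS cells against nonconfined cells, with the number of rows in brackets and the median log2 fold change at the right of each panel. Complex I assembly factors have the lowest median in confined WT cells (-0.35) and cytosolic ribosomal proteins the largest share lower in confined KO cells (68 of 81).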

How the data were processed

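Poly(A) RNA of 18 libraries, 3 in each of 6 groups taken from the labels, had been sequenced. The deposited signal values are normalized counts, for which the authors divided gene counts by the size factors that DESeq2 assigns to libraries. The submitters' processing notes name STAR 2.7.5a, featureCounts 1.5.0, DESeq2 and R 3.5.3, and the table uses Mouse FAST DB genes on mm39. Size factors assume that most genes do not change, and counting can split reads between near-identical genes.

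A row was kept where 3 or more libraries reached 10 normalized counts. All libraries entered 1 limma fit (version 3.58.1, R 4.3.3) of the log2 values after adding a pseudocount (two-sided, Benjamini-Hochberg adjustment over 17875 rows, threshold 0.05). The pseudocount of 1 understates changes of low genes. The procedure was first tested on simulated data. Dividing by the value of 1 read gave whole reads for 100% of values (tolerance 1e-06), with 33027230 to 61300021 reads per library. On these, edgeR 4.0.16 called 31 members lower and 10 higher in confined WT cells, and DESeq2 1.42.0 called 34 and 8. No 2 libraries of the same condition (nonconfined, confined or LPS) agreed within sampling noise, and other pairs were not compared. In the named-gene rule, the called members with the largest rise and fall of each complex in each comparison were named, together with Cycs, complex II, the complex IV isoforms, the c subunit genes, Ndufa4 with AA467197, and Atpif1. Gene lists were described by counts. The members and lists were chosen with earlier results of these data known, and the functional groups and further single genes after their values were seen. Alternatives were pseudocounts of 0.5 and 5, no filter or a filter of 100, scaling to the same total or by TMM, edgeR, DESeq2, a fit of the compared groups alone, the replicate block, leaving out each library, LPS libraries of 1 label and, chosen after seeing the data, leaving out LPS libraries that went against their label. Figures were drawn with matplotlib 3.10.9. Some single results are not reported here.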

Additional observations from a re-analysis of the deposited data

Results flagged for a closer look

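For 6 subunits the change with confinement differed between KO and WT cells by the interaction test of limma (Benjamini-Hochberg adjusted over all rows, 3 libraries a group). The difference, KO minus WT on the log2 scale, was -0.535 for Uqcrfs1, -0.366 for Ndufb1, -0.309 for Atp5d, -0.247 for Ndufa2, -0.235 for Cox7a2l and 0.296 for Ndufs8. These are 6.10% of members lower and 1.22% higher, below the 15.6% and 10.2% of all rows. With the same total per library the calls of Ndufb1, Atp5d, Cox7a2l and Ndufa2 were lost, and the call of Ndufs8 was lost without nonconfined KO replicate 2, confined WT replicate 2 or confined KO replicate 2. Among the genes around the subunits it was -1.342 for AA467197, -0.950 for Ttc19, -0.629 for Sco1, -0.573 for Cox17 and -0.968 for Gabpb1. Genotype and donor sex cannot be told apart in these libraries. Marker sums also differed between the genotypes without overlap. In nonconfined and confined cells these were the sums of eosinophils, neutrophils, mast cells or basophils, macrophages and lymphocytes. The lymphocyte markers were low, at 232 to 276 in nonconfined WT and 313 to 345 in nonconfined KO libraries. They were at 110 to 117 in confined WT and 143 to 201 in confined KO libraries. In nonconfined cells alone the DC marker sums did so too. Their part in these differences was not tested.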

How the results depend on the processing

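Pseudocounts, filters, DESeq2 and a fit of the compared groups alone reversed none of the named members, and scaling to the same total per library reversed 14 of 127, took 12 others past the threshold to the side not called, among them Ndufb1, Atp5d and Cox7a2l in the interaction, brought 27 to the side called and left 74 on their side. With the same total, members higher and lower numbered 1 and 65 in confined WT, 32 and 1 in the interaction, 49 and 1 between genotypes in confined cells, 1 and 76 with LPS, 56 and 1 in confined WT against LPS, and 72 and 2 in confined KO against LPS, and 2 were lower between genotypes in nonconfined cells. Reversed values were -0.009 for Ndufa2 in confined WT, 0.015 for Cox7a2l between genotypes in confined cells, 0.124 for Sdhc in confined WT against LPS, and 0.308 for Sdha, 0.047 for Uqcrfs1 and 0.084 for Atp5b in confined KO against LPS. With LPS they were -0.054 for Cycs, -0.060 for Ndufb1, -0.103 for Uqcrfs1, -0.085 for Atp5md, -0.366 for Cox6a1, -0.359 for Cox6b1, -0.283 for Cox7a2 and -0.398 for Atp5g3. The median of all rows moves with this scaling by its construction. Among all rows the shares higher and lower were then 20% and 41.3% in confined WT and 26.5% and 11% in the interaction. They were 33.6% and 14.6% between genotypes in confined cells and 20.4% and 56.8% with LPS. Against LPS they were 45.1% and 15% in confined WT and 56.6% and 16.7% in confined KO cells. Between genotypes in nonconfined cells 5.85% of all rows were lower. In confined WT against LPS, 19 were higher and 19 lower with TMM and likewise with edgeR, and 7 were higher with LPS libraries labelled WT alone and 5 without those against their label, while in confined KO against LPS both gave 9. The interaction had 2 higher with the filter of 100. The causes were not tested.

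With each library left out in turn, members higher ranged from 3 to 9 in confined WT, 0 to 1 in confined KO, 0 to 3 in the interaction, 0 to 8 between genotypes in nonconfined cells, 5 to 14 in confined WT against LPS and 9 to 14 in confined KO against LPS. Members lower ranged from 19 to 41 in confined KO, 4 to 9 in the interaction, 0 to 1 between genotypes in nonconfined and 3 to 9 in confined cells. The median between genotypes in nonconfined cells ranged from -0.023 to 0.087. Replicate numbers did not pair the libraries: 0 of 15 pairs of groups had all 3 correlations of same-numbered libraries above 0.1, and 8 of 18 libraries correlated best with their own number. The replicate block left 126 of 127 named results on their side of the threshold.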
